A study of Mus musculus with 33 samples.

Results

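The regions described here are places inside genes that both HSF1 antibodies marked late, and not early, in a heat shock. They are 1146 of the 3455 regions (33.2%) shared by the antibodies in wild type mouse cells after 60 min of heat shock. A region was taken when a peak of the antibody labelled CS and a peak of the antibody labelled MM overlapped by at least 1 bp at 60 min. It was called late when it overlapped no such shared region at 12 min and no peak of either antibody before heat shock. It was called internal when its summit, the midpoint of the highest CS and MM summits, lay inside an annotated mm10 gene and more than 1 kb from every gene end. The regions were thus chosen by the tags and positions of the wild type peaks at 60 min, 12 min and before heat shock, and these values are given as a description.

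HSF1, heat shock factor 1, is the transcription factor that turns on chaperone genes when proteins unfold. Heat turns the single protein into a trimer that binds DNA at heat shock elements, which are runs of the short unit nGAAn in alternating orientation. In fibroblasts, cells of connective tissue that make extracellular matrix and hold to it through actin-linked adhesions, HSF1 is known for the promoters of chaperone genes, and it also binds inside and between genes.

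The cells were mouse embryonic fibroblasts (MEFs) of the 129Sv.BALB/c strain background, either wild type or HSF1-/-, kept without heat shock or heat-shocked for 12 or 60 min. The series has 33 samples, of which 12 are of nascent RNA and 6 are IgG or input libraries. Chromatin immunoprecipitation and sequencing (ChIP-seq) gave 15 peak lists. Of these, 6 came from wild type cells and 6 from HSF1-/- cells with the CS and MM antibodies. The CS antibody is a commercial one from Cell Signaling, and the MM antibody was a gift from the Morimoto laboratory. The other 3 lists came from wild type cells with an antibody against SRF. The labels do not say whether each genotype is 1 line or several, and the file headers, not the labels, name HSF1 as the target. Each antibody had 1 list per genotype and time, so no difference between conditions could be set against replicate error, and regions are not replicates of a condition.

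Reference sequence was at hand for a few of the late internal regions, those over a start window, a stretch of 300 bases with 250 before and 50 after an annotated start. Of the 1146 regions, 30 touched such a window, which could be that of an outer or inner start of the host or of another gene. The summit itself was in a window in 7, and since it lies over 1 kb from every gene end, these starts are inside the host. The sequences show what the letters under a late summit can look like: first a pair of complete elements with 3 units, then a pair with 2 units, then 1 summit with neither. Capitals mark the element, and all are RefSeq sequence of GRCm38.p6, the assembly of mm10, 5′ to 3′.
Gm32605, chr10:117899354-117899481, plus strand: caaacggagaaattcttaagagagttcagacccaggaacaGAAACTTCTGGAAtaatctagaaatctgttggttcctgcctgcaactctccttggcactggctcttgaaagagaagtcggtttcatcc
Mga, chr2:119896978-119897234, plus strand: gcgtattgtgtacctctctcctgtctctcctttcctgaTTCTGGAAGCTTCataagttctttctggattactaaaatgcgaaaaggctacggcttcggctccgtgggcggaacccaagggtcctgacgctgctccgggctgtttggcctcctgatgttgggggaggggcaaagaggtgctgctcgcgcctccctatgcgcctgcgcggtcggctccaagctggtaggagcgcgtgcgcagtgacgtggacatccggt
Prickle1, chr15:93519491-93519551, minus strand: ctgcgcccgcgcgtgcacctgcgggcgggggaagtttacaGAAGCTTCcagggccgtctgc
Synj2, chr17:5975509-5975615, plus strand: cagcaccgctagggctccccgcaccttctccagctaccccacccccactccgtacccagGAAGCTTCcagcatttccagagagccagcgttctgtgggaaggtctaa
Dedd, chr1:171328733-171328853, plus strand: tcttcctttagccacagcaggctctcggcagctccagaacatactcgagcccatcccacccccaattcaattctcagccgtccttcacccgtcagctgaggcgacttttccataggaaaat

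The search was for TTC and GAA in turn, 3 in all, with any 2 bases between neighbours, starting with either and on both strands. A 3-unit element lay in the start window of 2 of the 7 regions with a summit there (28.6%, 3.67% to 71.0%). Among the 30 regions that touched a window, it lay in that of 2 (6.67%, 0.818% to 22.1%). Of all 32851 start windows 0.603% held one. Some regions touch several windows, so shares of regions and of windows are in unlike units. In Gm32605, a predicted gene, the element GAAACTTCTGGAA lay 35 bp from the summit of a region with 80 CS and 36 MM tags. In Mga, which encodes a MAX-binding transcription factor, TTCTGGAAGCTTC lay 166 bp from a summit with 102 CS and 47 MM tags. These elements thus stood at unlike distances, the first close to the summit and the second farther off.

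The shorter form, 1 TTC and 1 GAA in either order with any 2 bases between them, is contained in every 3-unit element. It lay in the windows of 4 of the 7 regions and of 5 of the 30 that touched a window, and in 15.1% of all start windows. In Prickle1, a planar cell polarity gene, GAAGCTTC lay 6 bp from the summit of a region with 399 CS and 342 MM tags. In Synj2, which encodes the lipid phosphatase synaptojanin 2, the same letters lay 19 bp from a summit with 185 CS and 117 MM tags. In Dedd, a gene of the death effector domain family, the window held neither form under a summit with 68 CS and 24 MM tags, and the windows in Gm12236 and 4930453N24Rik held neither. A match describes letters and not binding, and the other 1116 regions have no sequence here.

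Late regions were more often internal than regions seen earlier. Of all 60 min shared regions, 64.3% (2221) were late. Of these late regions 1146, or 51.6% (95% exact binomial interval 49.5% to 53.7%), were internal, 725 lay between genes and 350 within 1 kb of a gene end. Of the 1234 regions seen earlier, 532 or 43.1% (40.3% to 45.9%) were internal. The shift was set against gene ends, which held 15.8% of late regions and 26.3% of those seen earlier. Intervals given with shares cover counting error only, and no test compared conditions.

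The late call leans almost wholly on the 12 min lists, because a peak before heat shock alone removed only 3 regions. The 60 min lists were also much longer than the 12 min lists, with 4773 CS and 4614 MM peaks against 1781 and 1927. Depth went the other way: the 60 min libraries held 19.6 M CS and 14.0 M MM tags (M for mega), and the 12 min libraries 26.3 and 17.7 M. The IgG libraries used as control held 9.23 M tags at 60 min and 12.3 M at 12 min. The fragment length estimated by the peak caller was 161 bp (CS) and 114 bp (MM) at 60 min and 128 and 107 bp at 12 min. What these differences between libraries contribute to the late call was not tested.

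Most late internal regions were modest peaks. The number of CS tags in a region ran from 22 to 422 with a median of 62 and quartiles of 45 and 96. The number of MM tags ran from 10 to 342 with a median of 31. Fold enrichment, the caller's ratio of tags to the expected background, had a median of 31.1 for CS (10.9 to 210.1) and 20.9 for MM (5.85 to 178.6). Regions were narrow, with a median length of 892 bp (408 to 3078).

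In median tags, these were close to late regions between genes and under late regions at gene ends. They were weaker than internal regions seen earlier. The median region between genes that appeared late held 64 CS and 30 MM tags, and the median late region at a gene end held 76 and 43. Internal regions seen earlier held a median of 156.5 CS and 78 MM tags and were 1196.5 bp long. The ranges overlapped widely, since the weakest region seen earlier had 37 CS tags. Depth is the same in each of these classes, which come from the same lists.

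**Figure D1:**
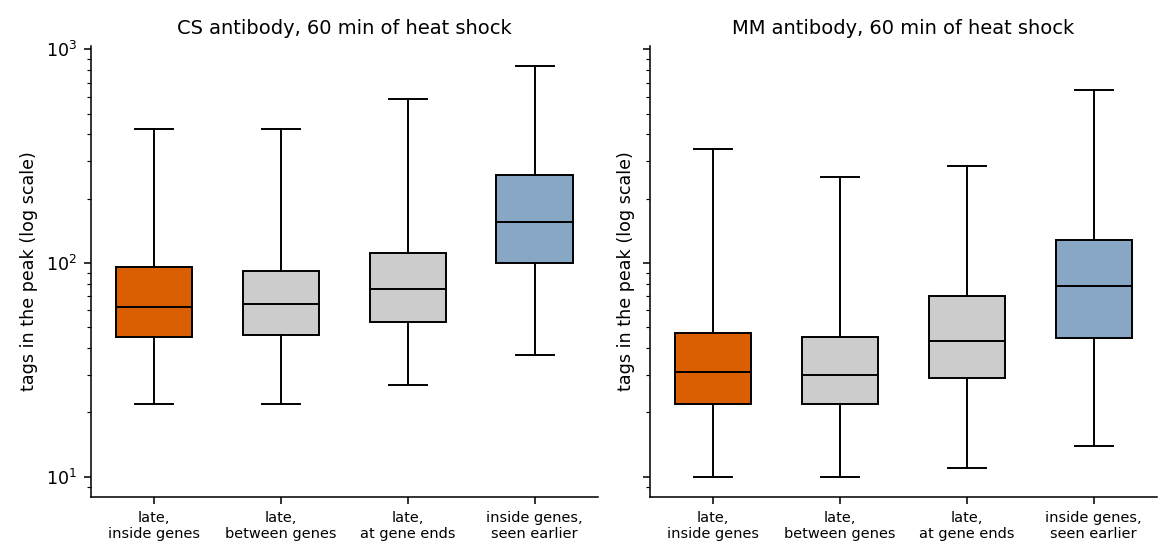
Tags per 60 min region for the CS antibody (left) and the MM antibody (right), log scale. Boxes give the quartiles with the median as a line, and whiskers reach the lowest and highest region. The 1146 late internal regions have medians of 62 and 31, near those of late regions between genes (64 and 30) and under those of the 532 internal regions seen earlier (156.5 and 78).

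The confidence of the calls, taken from the same peaks, went the same way and is no separate evidence. A score of 100 or more, equal to a p of 1e-10 or less, was reached in both lists by 387 late internal regions (33.8%, 31.0% to 36.6%), against 50.6% of all 60 min shared regions. Internal regions seen earlier reached it in 79.3%. An FDR of 5% or less in both lists was met by 866 regions (75.6%), against 83.4% of all 60 min regions. At the other end, 46 regions (4.01%) scored under 50 in both lists. The weakest in the poorer of their lists were in Fignl2 (score 40.01), Lamc1 (40.01) and Gpc6 (40.08), which sit at the authors' cutoff for a peak.

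The antibodies ranked the regions alike. Across the 1146 regions, CS and MM tags had a Spearman correlation of 0.80 and their log2 values a Pearson r of 0.84, given as a description because both lists were called against the same IgG library and a region had to be in both. The median region had 0.518 MM tags per CS tag, and only 5 regions had more MM than CS tags. Their summits lay a median of 20 bp apart, and in 965 regions (84.2%) within 50 bp. The widest gap was 917 bp. In 1139 regions there was just 1 CS and 1 MM peak.

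**Figure D2:**
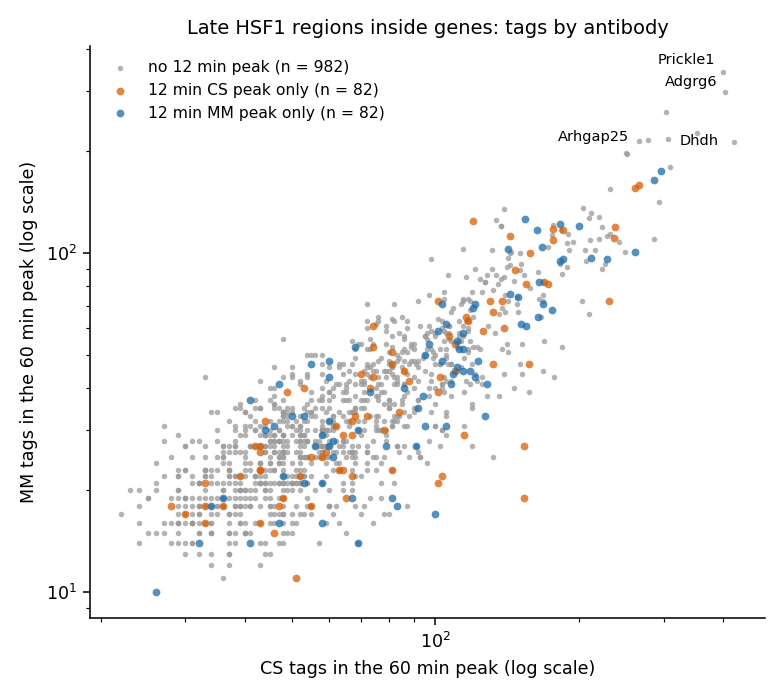
Each point is 1 late internal region, with its CS tags (x axis) and MM tags (y axis) at 60 min, both on log scales. Grey points have no 12 min peak (982), orange points a 12 min CS peak (82) and blue points a 12 min MM peak (82). The points follow 1 rising band. The coloured points have higher medians (91.5 CS and 41 MM tags) than the grey points (59 and 30).

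Several of the strongest late internal regions lay in genes far from the chaperone network. Regions were ordered by averaging their rank by CS fold with their rank by MM fold. First came Arhgap25, a GTPase-activating protein of the Rac pathway, where the region at chr6:87473573-87474463 held 266 CS and 214 MM tags with folds of 202.6 and 178.6. Second was Dhdh, a dihydrodiol dehydrogenase, with 306 and 217 tags and folds of 210.1 and 172.4 at chr7:45476497-45477607. Neither had a peak of either antibody at 12 min, and the nearest 12 min shared region was 253347 bp away for Arhgap25 and 451851 bp for Dhdh.

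After these came Txnrd1, the cytosolic thioredoxin reductase of the redox defence, with 242 CS and 108 MM tags at chr10:82838071-82839246. The next in a protein-coding gene were the strongest of 4 regions in Tspear and a region in Prkx, a protein kinase of the cyclic AMP-dependent family, with 176 and 121 tags. Prdm16, a transcriptional regulator known from brown fat, held 220 CS and 110 MM tags at chr4:154576977-154577681. None of the regions in Txnrd1, Prkx and Prdm16 had a peak of either antibody at 12 min.

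Dcaf5, a substrate receptor of CUL4 ubiquitin ligases, held 251 CS and 196 MM tags. Osbpl7, a lipid-binding protein of the oxysterol-binding family, held 278 and 216 at chr11:97065001-97066409, with the summit 1845 bp from the nearest gene end, that of Mir8103. Wrap73, a centrosomal protein, held 134 and 125. Adgrg6, an adhesion receptor that Schwann cells need to form myelin, had the most tags of the first 15, with 403 CS and 298 MM at chr10:14506796-14507849. Its summit lay 15788 bp from the nearest gene end.

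Of the others of the first 15 in protein-coding genes, a pair had a peak at 12 min. Prdm6, a repressor known from smooth muscle, held 182 CS and 95 MM tags and already had an MM peak at 12 min. Gm16867, a predicted gene, held 147 and 89 tags and had a CS peak at 12 min. Fbxl13, an F-box gene that encloses the secreted protein gene Lrrc17, shared with it a region of 184 and 87 tags. Tmprss9, a membrane serine protease, held 309 and 179, and Cracdl, a gene related to regulators of actin capping, held 146 and 83. Of the 15, then, 13 had no peak of either antibody at 12 min.

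Beyond the first 15, the rule left room for regions that were not wholly absent at 12 min. A 12 min peak of 1 antibody overlapped 164 late internal regions (14.3%, 12.3% to 16.5%), 82 with a CS and 82 with an MM peak, against 14.9% of all late regions. The share was 12.6% between genes and 22.0% (17.8% to 26.7%) at gene ends. At 12 min these CS peaks held 25 to 95 tags with a median of 43, and these MM peaks 14 to 79 with a median of 24. The same regions held more tags at 60 min than the rest, with medians of 91.5 CS and 41 MM against 59 and 30 in the 982 regions with no 12 min peak. Among the 100 regions ranked first by fold, 25 had one.

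Most late internal regions lay far from early ones. The median distance to the nearest 12 min shared region was 325063 bp. A 12 min shared region lay within 10 kb of 56 (4.89%, 3.71% to 6.30%), against 4.91% of all late regions. It was 4.97% between genes and 4.86% at gene ends. Within 2 kb there were 16, and the closest were those in Washc4, a subunit of the endosomal WASH complex (196 bp), Lamc1, a laminin chain (230 bp), and Tnxb, the matrix protein tenascin-X (236 bp). The region in Lamc1 held 79 CS and 27 MM tags, and its MM score was at the cutoff.

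**Figure D3:**
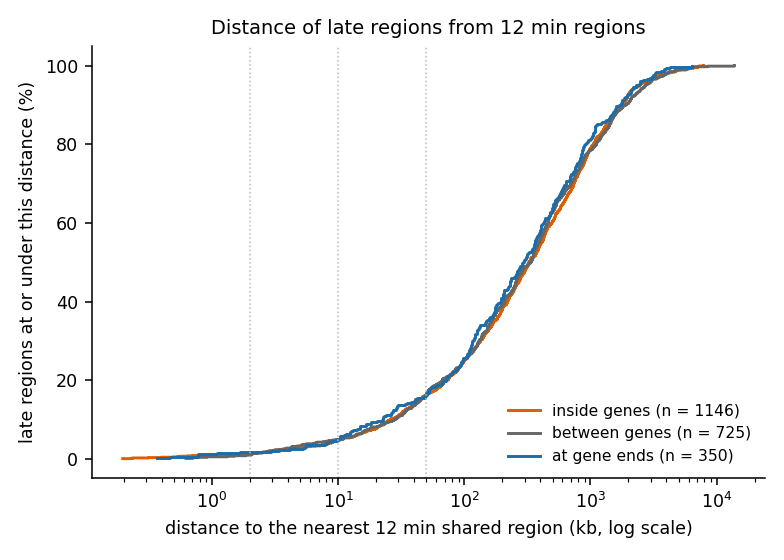
Share of late regions (y axis, percent) at or under a given distance to the nearest 12 min shared region (x axis, kb, log scale), for the 1146 regions inside genes, 725 between genes and 350 at gene ends. Dotted lines mark 2, 10 and 50 kb. The 3 curves run together, with 4.89%, 4.97% and 4.86% within 10 kb.

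The distances of the regions from each other were taken as well. The next late internal region on the same chromosome lay a median of 835.1 kb away, over the 1126 that have a next one. It lay within 10 kb for 29 and within 50 kb for 112. Whether this is closer or wider than random placement was not tested. The summits of the regions were a median of 11261 bp from the nearest gene end, and 41 lay more than 100 kb from any. The longest such distance was 385031 bp. Along 751 regions in exactly 1 protein-coding gene of known strand, the median summit was 43.6 kb from the start and 46.9% of the way along. The first 25% of the gene held 26.0% of them (22.9% to 29.3%) and the last 25% held 20.1% (17.3% to 23.2%). For internal regions seen earlier the median was 41.4%, with 29.97% in the first 25% of the gene, and the intervals overlapped.

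At the 1 kb limit itself, the tags of the 3 nearest regions on each side spanned similar ranges. They are too few to compare the sides. Just inside were Gm42015 at 1006 bp from a gene end with 43 CS and 16 MM tags, Btg3, an antiproliferative gene, at 1011 bp with 134 and 86, and Gm40079 at 1013 bp with 45 and 24. Just outside were Poc1a, a centriole gene, at 987 bp with 44 and 29, Gm46120 at 977 bp with 38 and 15, and a region inside Nudt1 and Mrm2 at 972 bp with 145 and 89.

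The host genes were mostly long. A protein-coding gene held 973 of the regions (84.9%), 168 (14.7%) lay in a long non-coding RNA gene only, and 5 in other genes only. The gene table gives starts and ends and not exons, so exonic and intronic regions are not told apart. The hosts were 832 protein-coding genes, 4.31% of the 19304 that are over 2 kb long and so could hold one. Their median length was 100.6 kb against 21.3 kb for all such genes. The share that held a region was 0.449% for genes of 2 to 10 kb, 2.01% for 10 to 30 kb, 5.10% for 30 to 100 kb, 15.4% for 100 to 300 kb and 23.3% for longer ones.

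Per length of gene the picture was flatter. Genes of 2 to 10 kb held 0.806 regions per megabase, those of 10 to 30 kb 1.10 and those of 30 to 100 kb 1.04. Those of 100 to 300 kb held 1.17 and those over 300 kb 0.596. These densities use the full length of each gene. The rule bars 1 kb at each gene end, which by construction lowers the density and the share of short genes most. Genes of 2 to 100 kb were hosts in 2.45% and genes over 100 kb in 17.2%, and the counts of host genes by list are to be read beside these shares.

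Hosts also held early regions more often than other genes in the same length band did. Of the 832 hosts, 115 (13.8%, 11.5% to 16.4%) had a 12 min shared region inside or at an end, against 3.96% of all protein-coding genes over 2 kb. Among genes over 100 kb it was 87 of 419 hosts (20.8%, 17.0% to 24.97%) and 150 of 2010 genes that held no late region (7.46%, 6.35% to 8.70%). Among genes of 2 to 100 kb it was 28 of 413 hosts (6.78%, 4.55% to 9.65%) and 499 of 16462 others (3.03%, 2.77% to 3.30%). These bands are wide, and length within them was not matched. An HSF1 region at an end was found at 60 min in 29 hosts (3.49%, 2.35% to 4.97%), near the 2.81% of all such genes. At 12 min it was found in 6 hosts (0.721%, 0.265% to 1.56%), under the 1.64% of all such genes. The shares at gene ends were not split by gene length, and hosts were longer.

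No cytosolic chaperone gene held a late internal region, but the list is too small to set it apart from other genes. Of 35 such genes over 2 kb, which encode the Hsp70, Hsp90 and small heat shock proteins and their partners, 0 did, which allows a share of up to 8.57% and takes in both the 4.31% of all genes and the 2.45% of genes of 2 to 100 kb. A total of 24 had a 12 min region inside or at an end. None of the 35 is over 100 kb long, and their median length is 12.5 kb. Cryab, a small heat shock protein of the lens and muscle, had a 60 min region with 187 CS and 77 MM tags, but 869 bp from a gene end and already shared at 12 min.

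Late internal regions were then counted in gene lists for the cell. Across all 11 lists, from chaperones to neuronal genes, 68 of 530 genes over 2 kb (12.8%, 10.1% to 15.98%) were hosts, beside 4.31% of all such genes, and many of the listed genes are long. The lists were drawn up for fibroblasts with earlier results of these data known, so they are no independent evidence.

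Of 63 actin and actomyosin genes 11 were hosts (17.5%, 9.05% to 29.1%), beside 4.31% of all genes. Of the 25 over 100 kb 6 were hosts, beside 17.2% of all genes of that length. Of the 38 of 2 to 100 kb 5 were hosts, beside 2.45% of all genes in that band, in which length was not matched. Myo10, the myosin of filopodia, had 2 late internal regions, the better with 121 CS and 90 MM tags. Pdlim1, an adaptor of stress fibres, had 114 and 52 with an MM peak at 12 min. Myl12b, a regulatory light chain of non-muscle myosin, had 169 and 55, and Myo9b, an unconventional myosin, had 61 and 30.

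Of 39 focal adhesion and integrin genes 9 were hosts (23.1%, 11.1% to 39.3%), beside 4.31% of all genes. Of the 16 over 100 kb 5 were hosts, beside 17.2% of all genes of that length. Of the 23 of 2 to 100 kb 4 were hosts, beside 2.45% of all genes in that band. Parva and Parvb encode the parvins, which tie integrins to actin. The region in Parva held 98 CS and 96 MM tags at chr7:112499206-112500168, a near equal yield of the antibodies, and that in Parvb held 167 and 104 with an MM peak at 12 min. Tns1, the adhesion protein tensin 1, held 142 and 97 in the better of 2 regions, and Bcar1, the Src substrate p130Cas, held 137 and 120.

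Of 59 extracellular matrix genes 9 were hosts (15.3%, 7.22% to 27.0%), beside 4.31% of all genes. Of the 16 over 100 kb 3 were hosts, beside 17.2% of all genes of that length. Of the 43 of 2 to 100 kb 6 were hosts, beside 2.45% of all genes in that band. Loxl3, an enzyme of the lysyl oxidase family that crosslinks collagen, held the best-ranked of them with 143 CS and 112 MM tags at chr6:83044337-83045440 and a CS peak at 12 min. P4ha1, a collagen prolyl hydroxylase, held 92 and 37 and lay 2315 bp from a 12 min shared region. Fbln1, the matrix protein fibulin 1, held 102 and 43 with a CS peak at 12 min, and Timp3, an inhibitor of metalloproteases, 86 and 45.

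Of 36 genes of TGF-beta and BMP signalling 3 were hosts (8.33%, 1.75% to 22.5%), with 0 among the 7 over 100 kb: the inhibitors Smad7, with 68 CS and 35 MM tags, and Ski, with 58 and 30, and Ltbp3, which keeps TGF-beta latent, with 84 and 34. Of 56 genes of receptor tyrosine kinases and MAPK signalling 4 were hosts (7.14%, 1.98% to 17.3%), all among the 17 over 100 kb. They were the Wnt5a receptors Ror2 (138 and 69) and Ror1 (97 and 54), the docking protein Gab1 (97 and 40) and the ephrin receptor Ephb2 (86 and 48). The intervals of both lists take in the 4.31% of all genes.

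Of 58 Hippo pathway and fibroblast transcription factor genes 8 were hosts (13.8%, 6.15% to 25.4%), beside 4.31% of all genes. Of the 26 over 100 kb 7 were hosts, beside 17.2% of all genes of that length. Of the 32 of 2 to 100 kb 1 was a host, beside 2.45% of all genes in that band. Foxp1, a forkhead repressor, held the strongest with 140 CS and 75 MM tags. Vgll4, a TEAD cofactor that competes with YAP, held 65 and 41, and Tcf7l2, a factor of Wnt signalling, held 48 and 34. Of 49 genes of protein clearance and autophagy 3 were hosts (6.12%, 1.28% to 16.9%), 2 of them among the 16 over 100 kb. These were the ubiquitin ligases Wwp2 (165 and 82) and Nedd4l (117 and 52) and the autophagy gene Wipi1 (71 and 37). The interval of the clearance and autophagy list takes in the 4.31% of all genes.

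Genes that fibroblasts are not known for were hosts as well. Of 34 markers of other cell types 3 were hosts (8.82%, 1.86% to 23.7%), 2 of them among the 6 over 100 kb. The interval takes in the 4.31% of all genes. Rbfox3, the neuronal nuclear antigen, held 119 CS and 77 MM tags, and Mbp, a myelin protein, held 103 and 60. Pecam1, an endothelial adhesion molecule, held 66 and 31. Of 48 long neuronal synapse and adhesion genes 8 were hosts (16.7%, 7.48% to 30.2%), close to the 17.2% of all genes over 100 kb. Among them were the glutamate receptor gene Grin2b with 114 and 61, the synaptic scaffold Dlg2 with 98 and 44 in the better of 2 regions, the adhesion gene Opcml with 44 and 26, and the splicing factor Rbfox1 with 80 and 17 in the best of 3. A peak list says nothing of how much RNA these genes made, and the nascent RNA samples were not analysed here.

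**Figure D4:**
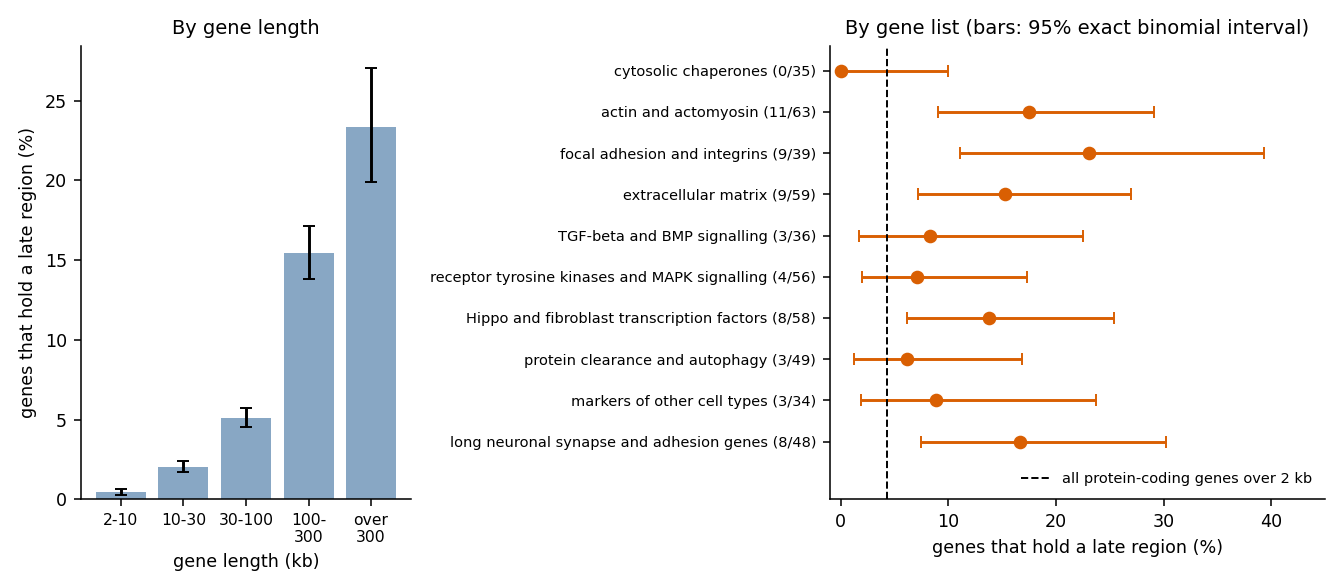
Share of protein-coding genes over 2 kb that hold a late internal region (percent), by gene length in kb (left, bars) and by gene list (right, points, with hosts and genes counted in brackets). Error bars are 95% exact binomial intervals, and the dashed line is all such genes at 4.31%. The share climbs from 0.449% to 23.3% with length, and the lists run from 0 of 35 chaperone genes to 9 of 39 focal adhesion genes.

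A few genes held several late internal regions. Of the 832 hosts, 714 held 1 region, 92 held 2, 21 held 3, 4 held 4, and Gse1 alone held 10. Gse1 encodes a subunit of a histone deacetylase and demethylase complex and spans 352.9 kb. Its 10 regions ran from chr8:120276234 to 120578812, with 45 to 229 CS tags (median 94.5) and 29 to 96 MM tags. The CS tags, in order along the gene, were 168, 83, 53, 106, 185, 50, 81, 108, 229 and 45, so strong and weak regions were interspersed. At 12 min 2 of the 10 had an MM peak, those with 185 and 229 CS tags.

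Gse1 was also bound early. Inside it, 2 further regions were shared at both times: the first went from 119 CS and 58 MM tags at 12 min to 177 and 133 at 60 min, the second from 73 and 52 to 275 and 126. Another lay 1314 bp before its start, inside A330074K22Rik, and held 77 and 37 tags at 12 min and 323 and 115 at 60 min. Tags of the different times are from libraries of different depth and are set side by side without a comparison. The late internal region of Gse1 nearest to an early one was 10210 bp from it.

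Tspear, a gene of hearing and tooth development, held 4 regions in a row inside its 200.9 kb. They were at chr10:77772994-77773989 with 164 CS and 88 MM tags, chr10:77778825-77779653 with 113 and 55, chr10:77784197-77785234 with 220 and 128, and chr10:77790879-77791906 with 168 and 72. Their summits were 5642, 5560 and 6678 bp apart. The gene end nearest to each belonged to a different small protein-coding gene, Gm3238, Gm7138, Gm3250 and Gm9639, at 2162, 2185, 2074 and 3032 bp. None had a 12 min peak, and the nearest 12 min shared region was 150278 bp away. The sources do not say how reads from near-identical copies were placed, so values in a row of related genes are uncertain.

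Mapt, which encodes the microtubule protein tau, held 4 late internal regions and no early one for 944588 bp. They had 37 CS and 19 MM tags, 36 and 21, 168 and 82, and 58 and 35 in order of coordinate, so 1 stood well above the others. It lay at chr11:104279378-104280733. Frmd4a, a scaffold gene of epithelial polarity, held 4 with 37 to 267 CS tags, and 2 of them had a CS peak at 12 min. Pakap, an anchor of protein kinase A, held 4 with 46 to 68 CS tags, and the closest of these was 494 bp from a 12 min shared region.

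Of the 21 genes with 3 regions, the 5 with the best-ranked regions were Ergic1, Mapre2, Sorcs2, St3gal3 and Maml2. Ergic1, a gene of transport between endoplasmic reticulum and Golgi, held 57 to 150 CS tags. Mapre2, a microtubule plus-end protein, held 26 to 115, and Sorcs2, a sorting receptor of the Vps10 family, 46 to 143. St3gal3, a sialyltransferase, held 48 to 216, 1 of them with an MM peak at 12 min. Maml2, a coactivator of Notch, held 41 to 68, and its nearest 12 min region was megabases away.

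**Figure D5:**
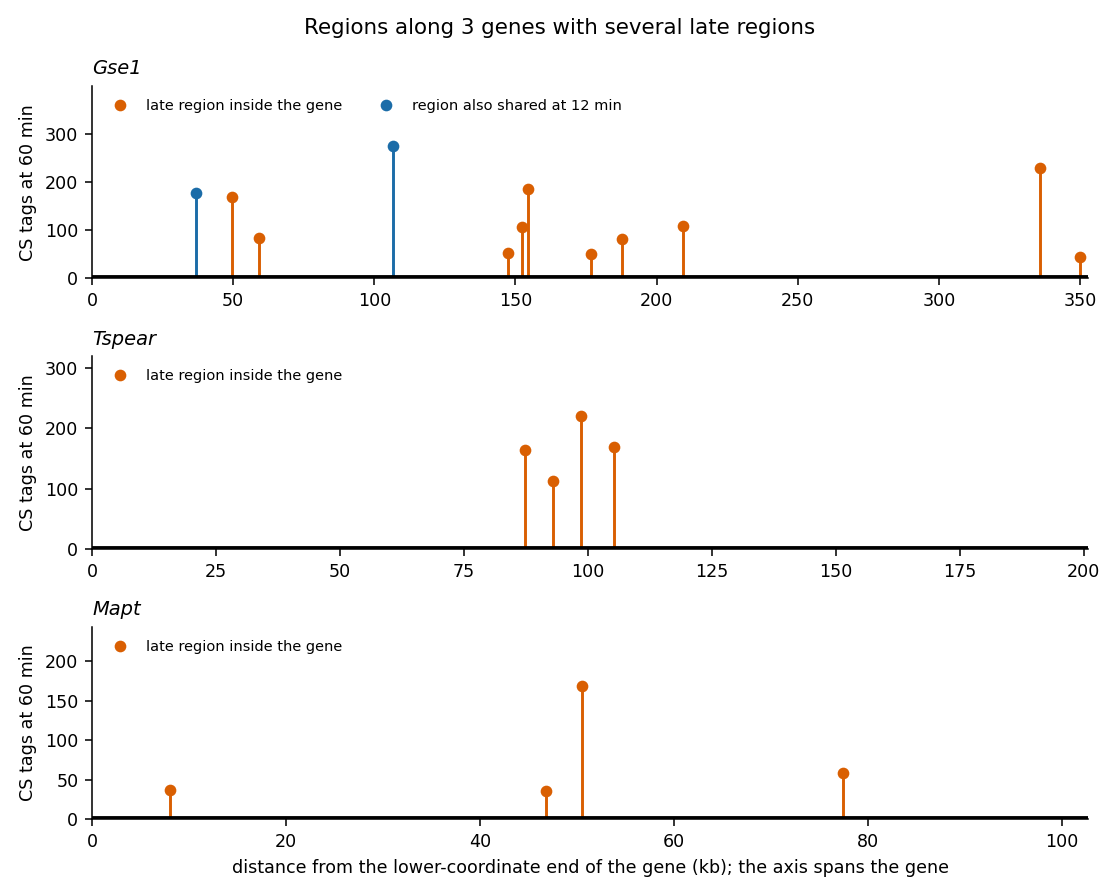
CS tags at 60 min (y axis) of each shared region along Gse1, Tspear and Mapt, by distance of its summit from the lower-coordinate end of the gene (x axis, kb). Orange marks late internal regions (10, 4 and 4) and blue the 2 regions in Gse1 also shared at 12 min. The regions of Gse1 are spread over the gene, and those of Tspear stand close together.

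HSF1-/- cells, which measure what the antibodies pull down without HSF1, gave little at these places. A knockout peak of either antibody at 60 min overlapped 21 late internal regions (1.83%, 1.14% to 2.79%), against 3.33% of all 60 min shared regions. The share was 4.14% (2.61% to 6.19%) for internal regions seen earlier, 4.57% at late gene ends and 1.38% for late regions between genes. The knockout peaks held 5 to 8 tags with a median of 5, and none reached a score of 100. No late internal region overlapped a 60 min knockout region of both antibodies, which allows a share of up to 0.262%, and 1 did at any time. A knockout peak of any of the 3 times overlapped 63 (5.50%, 4.25% to 6.98%), against 8.86% of all 60 min regions.

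The knockout lists were called without a control library, and the wild type lists against IgG, so tags are not on 1 scale between the genotypes. Knockout libraries were also shallower at 60 min, with 8.97 M CS and 7.39 M MM tags. The 60 min knockout peaks over these regions had median lengths of 102 bp (CS) and 105 bp (MM), beside 892 bp for the regions. Tags paired here thus come from stretches of unlike length. The best-ranked regions over a knockout peak at 60 min were Prickle1, with 5 MM tags in the knockout beside 342 in wild type cells, and St3gal3, with 5 CS tags beside 216. Next came Anp32e, a histone chaperone gene, with 7 CS tags beside 203. Then came Col13a1, a transmembrane collagen, with 5 MM tags beside 73, and Gm39772, a predicted gene, with 6 MM tags beside 82.

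SRF, a factor known from actin genes and immediate early genes, overlapped these regions in single cases. An SRF peak of any time overlapped 6 (0.524%, 0.192% to 1.14%), near the 0.637% of all 60 min shared regions. An SRF peak at 60 min overlapped 3 (0.262%, 0.0540% to 0.763%), of the 5 among all 60 min regions (0.145%), and the interval takes in that share. The SRF libraries were shallow, with 0.751 to 1.55 M tags, and the 60 min list has 18 peaks, so SRF sites under their detection cannot be told from absent ones.

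Nell2, which encodes a secreted neural protein, had the strongest overlap. Its region at chr15:95276284-95277230 held 67 CS and 27 MM tags, and the SRF peak, first of the 18 by fold, had a pileup of 14 tags and a −log10 q of 21.94. The summits were 10 bp apart. Atxn1, the ataxin 1 gene, held 136 and 38 tags with an SRF pileup of 5 (−log10 q of 3.77) 137 bp away. Ano6, a calcium-activated lipid scramblase, held 64 and 44 with a pileup of 4 (1.94) 169 bp away, and was last of all 1146 by fold rank.

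The SRF overlaps of the other times rested on 3 tags each, with a −log10 q of 1.29 at 12 min and 0.86 before heat shock. At 12 min they were in Nsmce2, a SUMO ligase gene, with 105 CS and 29 MM tags, and in the first region of Gse1, where the summits were 1535 bp apart. Before heat shock there was 1 in Camk2d, a calcium-dependent kinase, with 49 and 39 tags and summits 29 bp apart.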

How the data were processed

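ChIP-seq peak lists of wild type and HSF1-/- MEFs were used. Per the file headers, the authors called CS and MM peaks with MACS 1.4.2 (p cutoff 1e-04), using the matching IgG library as control in wild type cells and no control in the knockout. The wild type headers name a merge of 2 replicates, and at most 1 tag was kept per position. SRF peaks came from MACS2 2.0.9, per the file headers. The build was mm10, per the labels. No source used here names the aligner.

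Per the file headers, the values deposited for a MACS 1.4.2 peak are its count of tags, its score (the −log10 p times 10), its fold enrichment, which is a ratio, and an FDR in percent. Each deposited SRF peak carries a pileup (a signal), −log10 p and q and a fold. These are the authors' values for single peaks and were used to describe, rank or filter them.

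Shared regions, positions and shares were computed with Python 3.11.15, pandas 2.3.3, NumPy 2.4.6 and SciPy 1.17.1, and figures with matplotlib 3.10.9. Genes came from a GRCm38.p6 table with 49997 entries. Exact intervals are Clopper-Pearson at 95%, and a count of 0 allows up to 3 counts. Host genes were counted among protein-coding genes over 2 kb. The region search was tested on simulated peaks. Named are the 15 best regions by mean fold rank in protein-coding genes, up to 10 genes with at least 3 regions, up to 4 hosts per list, all regions over an SRF peak, the 5 best over a 60 min knockout peak and 3 on each side of the 1 kb limit. Other genes (the closest to 12 min regions, the lowest scores, the start windows and Cryab) were chosen after their values were seen. The regions and the lists were chosen with earlier results of these data known. No genome of this build was used, so the planned search for heat shock elements around every summit was replaced by one in the start windows. The alternatives varied the overlap, peak threshold, gene-end limit, gene set, antibody and knockout lists. The results of 1 gene list and 1 gene are not reported here, though they are in the totals over lists.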

Additional observations from a re-analysis of the deposited data

How the results depend on the processing

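Of 56 alternatives run, 47 stayed within the limits set for the same result and 9 moved. Those limits were wide. Settings counted as the same gave 823 to 1618 late internal regions beside 1146, and 637 to 1102 protein-coding hosts beside 832. At a 60 min threshold of p of 1e-10 or less, the late internal regions fell to 387, their protein-coding hosts to 311 and the hosts in the 11 lists to 30 (from 68), and the share with a 12 min peak of 1 antibody was 20.4%. Fewer regions enter that setting by its construction. The share over a knockout peak was 5.50% with knockout peaks of all 3 times and 0% with knockout regions of both antibodies. The share with a 12 min shared region within reach was 1.396% at 2 kb and 16.2% at 50 kb. It was 6.43% with CS peaks alone, where single CS peaks took the place of shared regions at both times. The cause of that value was not tested. The search for 2 units in windows around all summits was not run, because it needs a genome. No paired analysis was possible because each antibody had 1 list per genotype and time, with no replicate numbers. The late call rests on the peak threshold at 12 min, and what depth contributes to it was not tested.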

Other observations

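Long non-coding RNA genes held 168 of the late internal regions with no protein-coding host, spread over 164 genes. Their medians of 60.5 CS and 29 MM tags were near those of all late internal regions, and 6 of the 30 regions ranked first by fold were among them. The best of these was in Gm34133 at chr4:54877025-54878120, with 176 CS and 109 MM tags and folds of 156.0 and 124.4. Next were Gm39488 on chromosome X, with 194 CS and 108 MM tags, and Gm35778 on chromosome 18, with 189 and 114. These are predicted genes named in the annotation, and their transcripts were not measured here.

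Late internal regions were unevenly spread over the chromosomes. Chromosome 11 held 69.7 per 100 Mb, chromosome 2 held 64.3 and chromosome 8 held 61.9, against 17.5 on chromosome 12 and 9.37 on chromosome X, and none of the 1146 lay on chromosome Y. As a share of all 60 min shared regions of the chromosome, the values were closer, with 33.5% on chromosome 11, 21.6% on chromosome 12 and 23.9% on chromosome X.

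Pakap held a pair of late internal regions that nearly touch. The first, at chr4:57861672-57862462, had 58 CS and 26 MM tags, and the second, at chr4:57862520-57863192, had 68 and 33 with a CS peak at 12 min.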
